A study of Mus musculus with 16 samples.

Results

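The genes described here are 10 subunits of the BAF (SWI/SNF) chromatin remodeler that differ between neural progenitors and neurons or are alternatives of each other. They are *Arid1a*, *Arid1b*, *Smarca2*, *Smarca4*, *Actl6a*, *Actl6b*, *Dpf1*, *Dpf3*, *Phf10* and *Ss18l1*. They were found by symbol among 55471 lines of each deposited expression table, where every one of the 10 stood on 1 line on either day. All libraries came from C57BL/6 neural stem cells (NSC) isolated from cortices of E15-16 embryos, which were pooled and of mixed sex, and all cultures had received a lentivirus. The virus carried a scrambled shRNA (shRNA CON) or an shRNA against the long noncoding RNA *RUS* (shRNA RUS), and the study asked what loss of *RUS* does to these cells. NSC were grown with serum and FGF2, differentiation was started on day 5 after seeding, and RNA was taken on day 5 and on day 7, giving 16 libraries, 4 in each of the 4 groups. *Arid1b* is among the genes that the study lists as putative *RUS* targets. Groups are named by shRNA and day, where control stands for shRNA CON and knockdown for shRNA RUS.

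BAF complexes use the energy of ATP to move or eject nucleosomes. Each complex holds a single ATPase, BRG1 (*Smarca4*) or BRM (*Smarca2*), and canonical BAF holds a single ARID subunit, BAF250a (*Arid1a*) or BAF250b (*Arid1b*). When neural progenitors leave the cell cycle, the actin-related subunit BAF53a (*Actl6a*), the PHD-finger subunit BAF45a (*Phf10*) and SS18 are exchanged for BAF53b (*Actl6b*), BAF45b (*Dpf1*) or BAF45c (*Dpf3*) and CREST (*Ss18l1*). *Actl6a* is known to be repressed through its 3′ UTR by miR-9-3p (also called miR-9*) and miR-124. The repressor REST can in turn repress genes of these microRNAs.

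Words in the 3′ UTRs of the members that match miR-9 are shown first, since the known link is that of miR-9-3p to *Actl6a*. For the words in other members no such link is claimed. The mature sequences, as RefSeq gives them for GRCm38.p6, are the same at all 3 mouse loci, *Mir9-1*, *Mir9-2* and *Mir9-3*. Capitals mark the seed, bases 2 to 8.
miR-9-3p: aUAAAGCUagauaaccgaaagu
miR-9-5p: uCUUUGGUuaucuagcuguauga
The word AGCTTTA pairs with the miR-9-3p seed, and ACCAAAG with that of miR-9-5p. They were searched on the transcript strand in the longest annotated 3′ UTR of each gene (GENCODE vM21, GRCm38). Of the members, *Actl6a* and *Smarca2* held AGCTTTA, and *Arid1a* and *Arid1b* held ACCAAAG. In the stretches below, capitals mark the word.
Actl6a, chr3:32726640-32726646, plus strand: cgtcacctcaacgtctgtAGCTTTAgtaca
Smarca2, chr19:26777502-26777508, plus strand: tcattgtcatctagaactAGCTTTAgggta
Arid1a, chr4:133680053-133680059, minus strand: gaagacttttttattttaACCAAAGttact
Arid1b, chr17:5343324-5343330, plus strand: ctgtttcttttttttttaACCAAAGttgcc
Arid1b, chr17:5346930-5346936, plus strand: cacagtattttctggggaACCAAAGgcctc
Of 21037 3′ UTRs, 11.3% held AGCTTTA and 12.2% held ACCAAAG. The 3′ UTR of *Actl6a* has 371 bases, and 2.65% of 3′ UTRs of similar length hold AGCTTTA. For *Smarca2*, with 952 bases, this share is 7.55%. The longest 3′ UTR is that of *Arid1b*, with 4569 bases, and 34.3% of 3′ UTRs of similar length hold ACCAAAG at least once; for *Arid1a*, with 1323 bases, it is 11.9%. The words describe the annotation, and whether they are used in these cells was not measured.

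The tables give TPM, transcript abundance per length and scaled to a fixed total, which can be compared between genes but does not tell how many reads lie behind a value, so depth is unknown. Between 25612 and 29126 genes per library were above 0. The targeted transcript, listed as *Gm20754*, was near the bottom of the range. On day 5 it stood at 0.24, 0.11, 0.18 and 0.16 TPM in shRNA CON and at 0.05, 0, 0.12 and 0.32 in shRNA RUS, where replicate 4 was above every control library. The shRNA RUS mean was 71.0% of control (exact two-sided permutation test over 70 arrangements, p = 0.543). On day 7 the values were 0.70, 0.72, 0.26 and 0.54 against 0.54, 0.38, 0 and 0.04 TPM, a mean of 43.2% of control (exact permutation p = 0.143). The test thus did not show a lower level of the target on either day, at values this low. By RT-qPCR, the study reported a reduced *RUS* level in the shRNA RUS cells of this experiment. Day 5 values of the 10 members and of their ratios are also given without shRNA RUS replicate 4. All 6 NSC markers were above 0 in every group. Their summed level was 11780 to 13150 TPM in shRNA CON and 15600 to 17210 in shRNA RUS on day 5, and 6447 to 6943 against 7009 to 7731 on day 7, without overlap on either day. Most of this sum was *Vim* and *Fabp7*, while *Nes* was lower in shRNA RUS, at 27.5 ± 3.21 against 56.0 ± 2.62 TPM on day 5 and 48.6 ± 5.20 against 111 ± 6.01 on day 7. In cultures of mixed cells, fewer cells of a type and less RNA per cell cannot be told apart. The 5 proliferation markers (among them *Mki67*, *Pcna*, *Top2a* and *Cdk1*) were lower in shRNA RUS on both days, all 5 past the test. Their summed level was 589 to 627 TPM in shRNA CON and 297 to 342 in shRNA RUS on day 5, and 684 to 696 against 272 to 306 on day 7. The 5 microglia markers summed to 256 to 281 TPM in shRNA CON and to 122 to 159 in shRNA RUS on day 7, when all 5 were lower, and to 91.7 to 101 against 82.7 to 108 on day 5. The 8 neuron markers summed to 563 to 689 against 572 to 621 TPM on day 5 and 810 to 895 against 799 to 921 on day 7. The sum hides members that went apart on day 7, and the 4 named next were chosen after their values were seen. *Snap25* stood at 29.2 ± 3.11 TPM in shRNA RUS against 19.1 ± 1.63 in shRNA CON, *Syt1* at 9.99 ± 1.20 against 6.67 ± 0.446 and *Gap43* at 74.5 ± 4.61 against 50.9 ± 1.81, all called higher, and *Map2* was called lower, at 283 ± 19.9 against 332 ± 20.8. The part of these differences in the results on the subunits was not tested.

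In control cells on day 5 transcripts of *Actl6a* and *Ss18* were far above those of their neuronal counterparts. Mean levels in shRNA CON were led by the ATPases *Smarca2*, 75.2 ± 3.13 TPM (SD, n = 4), and *Smarca4*, 65.8 ± 2.75, whose ranges did not overlap. The progenitor subunits *Actl6a*, 54.8 ± 1.76, and *Phf10*, 51.8 ± 4.49, followed with overlapping ranges. *Arid1a*, 24.8 ± 3.55, and *Dpf1*, 22.5 ± 2.10, also overlapped. Below them stood *Arid1b*, 11.7 ± 0.814, then *Ss18l1*, 8.21 ± 1.04, the neuronal subunit *Actl6b*, 7.03 ± 0.678, and *Dpf3*, 6.69 ± 0.565, the last 3 with each range overlapping the next. *Actl6b* made up 11.4% ± 0.814 of the summed *Actl6a* and *Actl6b* level, and *Ss18l1* 13.2% ± 0.833 of that of *Ss18* and *Ss18l1*. In shRNA RUS on day 5 the order at the top changed to *Smarca4*, *Phf10*, *Smarca2* and *Actl6a*, each overlapping the next. On day 7 *Smarca2*, 78.0 ± 1.22 TPM, was above *Smarca4*, 70.5 ± 2.94, in shRNA CON without overlap, and *Smarca4*, 89.3 ± 8.44, was above *Smarca2*, 71.7 ± 2.95, in shRNA RUS, also without overlap.

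**Figure D1:**
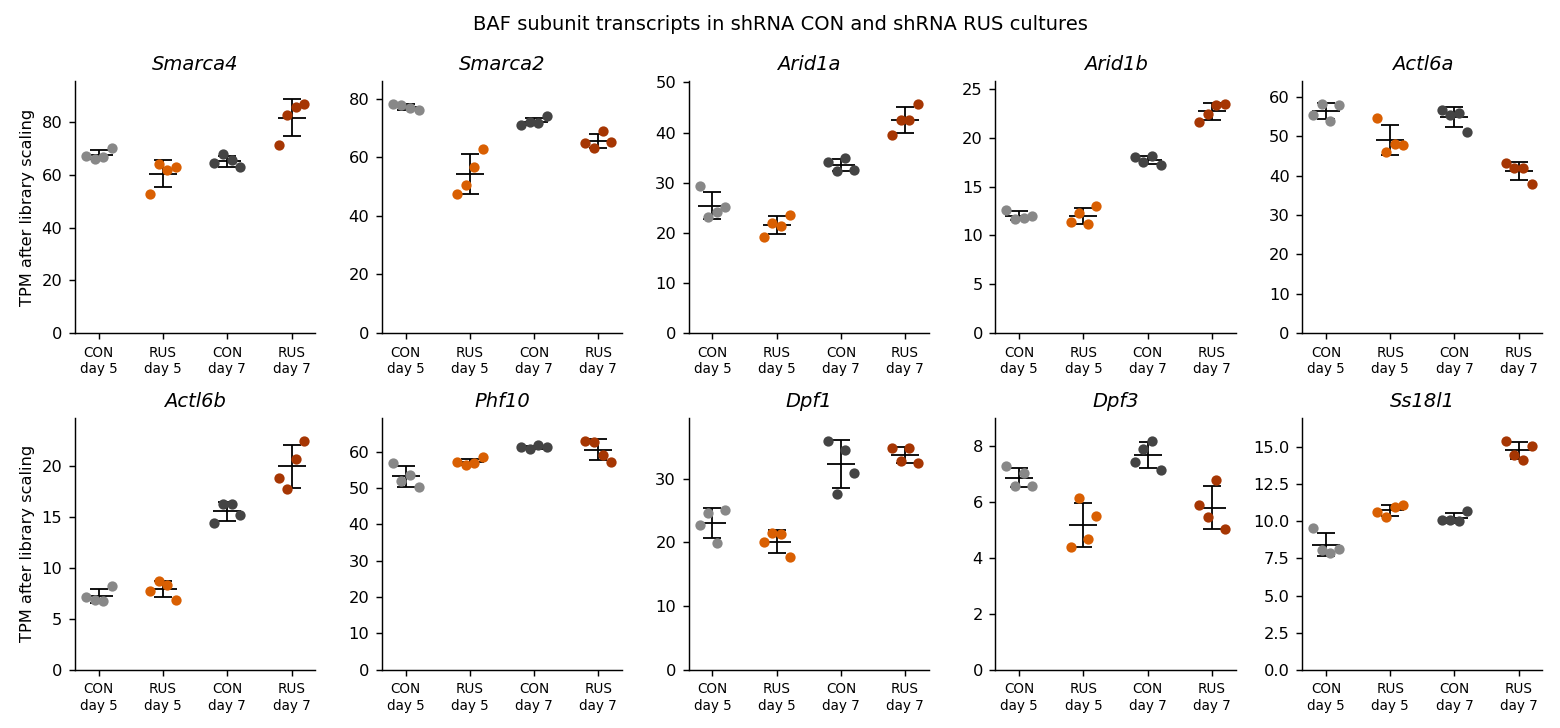
Level of each of the 10 subunits in every library (points), in TPM divided by library factors set over all 16 libraries, for shRNA CON and shRNA RUS on day 5 and day 7. Horizontal bars are group means and error bars are SD, n = 4. On day 7 the shRNA RUS points of *Arid1a*, *Arid1b*, *Actl6b*, *Ss18l1* and *Smarca4* lie above all shRNA CON points, and those of *Actl6a*, *Smarca2* and *Dpf3* below.

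On day 5, 4 of the 10 members differed between shRNA RUS and shRNA CON: the ATPase *Smarca2* and the subunits *Dpf3* and *Actl6a* were lower, and *Ss18l1* was higher. Values below are TPM divided by a library factor of that day, and tests are limma's on log2(value + 0.1), two-sided, with Benjamini-Hochberg adjustment over all genes tested and a threshold of 0.05. Among all 22581 genes tested, 32.7% were called, 14.8% higher and 17.9% lower. When the filter on mean TPM was raised from 0.1 to 1, which every member passes, 46.6% of 15286 genes were called. The share of members called lies between these shares. The groups did not overlap for 4 members and for 32.8% of all genes. The median log2 fold change was -0.18 over the members and -0.061 over all genes. The day 5 factors ran from 0.920 to 1.11, lower in the shRNA RUS than in the shRNA CON libraries. With TPM as deposited, 6 members were lower and 0 higher, the share of called genes that were higher fell from 45.4% to 22.7%, and the median of all genes was -0.21. Scaling to the 75th percentile gave 6 lower and 1 higher, and 33.2%.

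*Smarca2*, which encodes the ATPase BRM, stood at 71.7, 71.6, 71.0 and 70.1 TPM after scaling in shRNA CON and at 43.7, 46.7, 52.2 and 57.8 in shRNA RUS on day 5. All shRNA RUS libraries were below all controls, and their spread was wider. Its log2 fold change was -0.51 (SE 0.082, adjusted p = 0.00144, limma), a ratio of 0.701, and 73% of genes changed by a smaller size. Without shRNA RUS replicate 4 it was -0.58 (adjusted p = 0.000218). The call held in 18 of 18 alternatives.

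*Dpf3*, which encodes the neuronal BAF45c, stood at 6.68, 6.05, 6.48 and 6.05 TPM after scaling in shRNA CON and 4.01, 5.68, 4.32 and 5.04 in shRNA RUS. The groups did not overlap (log2 fold change -0.41, SE 0.11, adjusted p = 0.0211). The call did not hold without shRNA CON replicate 1 or 3 or shRNA RUS replicate 3, with adjusted p of 0.0574, 0.0577 and 0.0587. Nor did it hold with quantile normalization, where the value was -0.27 (adjusted p = 0.112), or with the replicate block (-0.41, adjusted p = 0.072). *Actl6a*, which encodes the progenitor subunit BAF53a, stood at 50.7, 53.6, 49.7 and 53.3 against 50.2, 42.5, 44.3 and 44.1. The first shRNA RUS library lay within the control range, so the groups overlapped (log2 fold change -0.20, SE 0.062, adjusted p = 0.0371). It failed in 10 of 18 alternatives, at an adjusted p of up to 0.118. These were no filter, no variance trend, the replicate block and 7 of 8 fits with 1 library left out, all but that without shRNA RUS replicate 1. *Actl6a* overlaps *Mrpl47* on the other strand, and whether counting used the strand is not given in the sources used here.

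*Ss18l1*, which encodes the calcium-responsive coactivator CREST, stood at 8.76, 7.42, 7.26 and 7.52 TPM after scaling in shRNA CON and at 9.79, 9.49, 10.1 and 10.2 in shRNA RUS. All shRNA RUS libraries were above all controls (log2 fold change 0.35, SE 0.077, adjusted p = 0.0071). With TPM as deposited the value was 0.20 (adjusted p = 0.165).

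The other 6 members did not pass the test on day 5. *Arid1b* stood at 11.6, 10.8, 10.9 and 11.1 TPM after scaling in shRNA CON and at 10.49, 11.4, 10.3 and 12 in shRNA RUS, so the groups overlapped. Its log2 fold change was -0.0053, with a 95% interval of -0.16 to 0.15 (adjusted p = 0.964), and its sign depended on the scaling, with 0.090 after quantile normalization and -0.16 with TPM as deposited. *Smarca4* (BRG1), at 60.9 to 64.5 against 48.5 to 59.2 TPM after scaling, did not overlap (log2 fold change -0.16, adjusted p = 0.0961), and it was called lower with TPM as deposited, with quantile normalization and with scaling to the 75th percentile. *Arid1a*, at 21.2 to 26.9 against 17.6 to 21.7 TPM after scaling, had a log2 fold change of -0.23 (adjusted p = 0.077), and it was called in 4 of 18 alternatives. These were TPM as deposited (-0.39, adjusted p = 0.0287), 75th percentile scaling (-0.31, adjusted p = 0.0276), the fit of all 16 libraries (-0.23, adjusted p = 0.0214) and the fit without shRNA RUS replicate 4 (-0.28, adjusted p = 0.0436). *Dpf1* had -0.19 (adjusted p = 0.142), and was called lower with TPM as deposited (-0.35, adjusted p = 0.0105) and 75th percentile scaling (-0.27, adjusted p = 0.0407). The values were 0.11 for *Phf10* (adjusted p = 0.139) and 0.12 for *Actl6b* (adjusted p = 0.383), and *Phf10* and *Actl6b* changed sign with TPM as deposited, to -0.051 and -0.032. Without shRNA RUS replicate 4 again 4 members were called, with *Arid1a* in the place of *Actl6a* (-0.18, adjusted p = 0.0587). *Dpf3* was then at -0.44 (adjusted p = 0.0216), *Ss18l1* at 0.34 (adjusted p = 0.012) and *Arid1b* at -0.044 (adjusted p = 0.633). *Smarca4* was at -0.18 (adjusted p = 0.0763), *Dpf1* at -0.13 (0.27), *Phf10* at 0.099 (0.176) and *Actl6b* at 0.19 (0.136).

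On day 7, 8 of the 10 members differed. The neuronal subunits *Ss18l1* and *Actl6b*, both ARID subunits and the ATPase *Smarca4* were higher in shRNA RUS, and *Actl6a*, *Dpf3* and *Smarca2* were lower. Among all 24606 genes tested, 49.2% were called, 23.4% higher and 25.8% lower, and the groups did not overlap for 47%. When the filter on mean TPM was raised to 1, 67% of 16333 genes were called. The groups did not overlap for 8 members. The median absolute log2 fold change was 0.36 over the members and 0.38 over all genes, so the members' changes were of the size usual on that day. Factors were close to 1 on this day, and the median of all genes was -0.029.

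*Actl6a* and *Actl6b*, the pair exchanged when progenitors become neurons, moved in opposite directions. *Actl6a* stood at 61.4, 60.1, 60.7 and 54.8 TPM after scaling in shRNA CON and at 47.0, 45.7, 45.9 and 41.3 in shRNA RUS (log2 fold change -0.40, SE 0.053, adjusted p = 0.0002, limma). *Actl6b* stood at 15.5, 17.6, 17.6 and 16.3 against 20.4, 19.4, 22.7 and 24.4 (log2 fold change 0.37, SE 0.079, adjusted p = 0.00359). In neither gene did the groups overlap, and both calls held in 18 of 18 alternatives.

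*Ss18l1* rose the most among the members. Its levels were 10.9, 10.9, 10.9 and 11.5 TPM after scaling in shRNA CON and 16.75, 15.8, 15.5 and 16.4 in shRNA RUS (log2 fold change 0.54, SE 0.048, adjusted p = 1.32e-05). Its progenitor counterpart *Ss18* rose too, from 67.5 ± 0.523 to 78.3 ± 5.12 TPM after scaling (log2 fold change 0.21, adjusted p = 0.00486), and had not been called on day 5 (0.089, adjusted p = 0.324).

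*Arid1b* (chr17:4994332-5347656, plus strand) stood at 19.5, 19.0, 19.7 and 18.5 TPM after scaling in shRNA CON on day 7 and at 23.5, 24.5, 25.6 and 25.6 in shRNA RUS. Every shRNA RUS library was above every control (log2 fold change 0.37, SE 0.045, adjusted p = 0.000109). *Arid1a*, which encodes the alternative ARID subunit, rose by nearly the same size, from 35.0 to 37.8 TPM after scaling in shRNA CON to 42.8 to 49.8 in shRNA RUS (log2 fold change 0.36, SE 0.052, adjusted p = 0.000336). Both calls held in 18 of 18 alternatives, where the *Arid1b* value ran from 0.31 to 0.40.

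The ATPases went apart on day 7. *Smarca4* stood at 69.96, 73.5, 71.1 and 67.5 TPM after scaling in shRNA CON and at 77.5, 90.4, 93.9 and 94.7 in shRNA RUS, all above the controls (log2 fold change 0.33, SE 0.064, adjusted p = 0.00185). *Smarca2* stood at 77.0, 78.0, 77.6 and 79.4 against 70.4, 69.2, 75.5 and 71.1, all below the controls by a smaller margin (log2 fold change -0.13, SE 0.036, adjusted p = 0.0159). It did not hold without shRNA RUS replicate 2 (adjusted p = 0.0531), without a trend in the variance (0.0522) or in the fit of all 16 libraries (0.0905). *Dpf3* was again lower, at 7.67 to 8.86 against 5.47 to 7.45 TPM after scaling (log2 fold change -0.39, SE 0.098, adjusted p = 0.00837). *Dpf1*, the other neuronal BAF45 gene, stood at 29.96 to 38.96 against 35.3 to 38.2 (0.083, 95% interval -0.095 to 0.26, adjusted p = 0.42), and the progenitor BAF45 gene *Phf10* at 65.6 to 66.9 against 62.1 to 68.5 (-0.0034, 95% interval -0.091 to 0.085, adjusted p = 0.956).

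**Figure D2:**
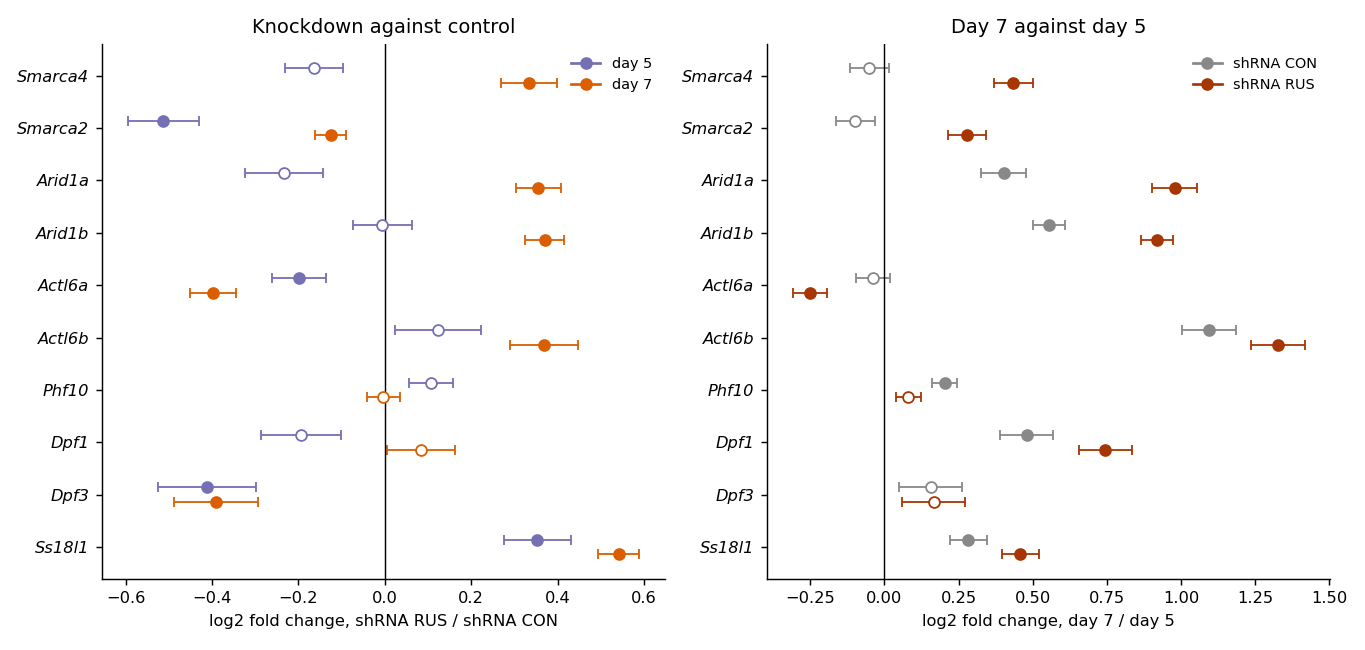
Log2 fold change of each subunit, with bars of 1 standard error, for shRNA RUS against shRNA CON on day 5 and day 7 (left) and for day 7 against day 5 in shRNA CON and shRNA RUS (right). Filled points passed an adjusted p of 0.05 (limma) and open points did not. On the left, *Smarca4* and *Arid1a* lie below 0 on day 5, where they were not called, and above 0 on day 7, and *Dpf3* lies at -0.41 and -0.39.

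The knockdown effect itself was compared between the days in 1 fit over the 16 libraries. It was higher on day 7 than on day 5 for 4 members and lower for 0, where 29.8% of 23789 genes were called, 15.2% higher and 14.6% lower. These 4 were *Arid1a*, by 0.58 on the log2 scale (SE 0.11, adjusted p = 0.000916, limma), *Smarca4*, by 0.49 (SE 0.093, adjusted p = 0.00122), *Smarca2*, by 0.38 (SE 0.091, adjusted p = 0.00601), and *Arid1b*, by 0.36 (SE 0.076, adjusted p = 0.00219). Each call held in 25 of 25 alternatives. When the filter on mean TPM was raised to 1, 43.6% of 15899 genes were called. The difference was not called for the other 6. It was -0.21 for *Actl6a* (adjusted p = 0.0622), which was called in 3 of 25 alternatives, with a mean of at least 1 TPM (-0.21, adjusted p = 0.0476), without shRNA RUS day 5 replicate 2 (-0.24, adjusted p = 0.0399) and without shRNA CON day 7 replicate 4 (-0.25, adjusted p = 0.0347). The values were 0.23 for *Actl6b* (0.191), 0.26 for *Dpf1* (0.129), 0.010 for *Dpf3* (0.972), -0.12 for *Phf10* (0.144) and 0.18 for *Ss18l1* (0.147). The *Dpf3* interval, -0.31 to 0.33, leaves room for a difference in either direction. With TPM as deposited 7 members were higher, and 73.5% of called genes were higher, against 51.1%.

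From day 5 to day 7, 6 members rose in shRNA CON and 0 fell, and 7 rose and 1 fell in shRNA RUS. Among all genes 48.5% were called in shRNA CON, 26.9% higher and 21.6% lower, and 60.8% in shRNA RUS, 35% higher and 25.8% lower. When the filter on mean TPM was raised to 1, the called shares were 61.1% in shRNA CON and 74.1% in shRNA RUS. The groups did not overlap for 7 members and 46.9% of all genes in shRNA CON, and for 8 members and 52.5% in shRNA RUS. Both comparisons use the libraries of the knockdown comparisons, and day cannot be told apart from any batch in which the days were handled. Values here are TPM divided by factors over all 16 libraries. *Actl6b* rose the most, from 7.23 ± 0.671 to 15.5 ± 0.931 TPM after scaling in shRNA CON (log2 fold change 1.095, SE 0.090, adjusted p = 7.43e-08) and from 7.88 ± 0.799 to 19.9 ± 2.07 in shRNA RUS (1.33, SE 0.090, adjusted p = 4.96e-09). Of all genes, 87.5% changed by a smaller size in shRNA CON and 88.5% in shRNA RUS. *Arid1b* rose from 12.03 ± 0.434 to 17.7 ± 0.430 in shRNA CON (0.56, adjusted p = 4.41e-07) and from 11.99 ± 0.848 to 22.7 ± 0.865 in shRNA RUS (0.92, adjusted p = 9.92e-10). *Arid1a* rose by 0.40 (adjusted p = 0.000342) and 0.98 (adjusted p = 1.87e-08), *Dpf1* by 0.48 (0.000318) and 0.74 (2.39e-06), and *Ss18l1* by 0.28 (0.00127) and 0.46 (8.78e-06).

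No progenitor subunit was called lower with time in control cells. *Actl6a* stood at 56.4 ± 2.06 TPM after scaling on day 5 and 54.9 ± 2.56 on day 7 in shRNA CON (log2 fold change -0.040, adjusted p = 0.607), and at 49.2 ± 3.80 and 41.2 ± 2.33 in shRNA RUS, where it fell (-0.25, adjusted p = 0.00132). With TPM as deposited, where the median of all genes rose by 0.20 in shRNA CON and 0.41 in shRNA RUS, the values were 0.11 and 0.072 and neither was called. The fall in shRNA RUS was not called with 75th percentile scaling either (-0.15, adjusted p = 0.0882). *Phf10* rose in shRNA CON (0.20, adjusted p = 0.000952) and had 0.081 in shRNA RUS (adjusted p = 0.117). The other 3 scalings also called it higher in shRNA RUS, at 0.40 with TPM as deposited (adjusted p = 1.29e-05), 0.20 with quantile normalization (0.00165) and 0.19 with 75th percentile scaling (0.00826). The strand doubt named for *Actl6a* also holds for *Phf10*, which overlaps *1600012H06Rik*, *Smarca2* (*4931403E22Rik* and *Gm20616*), *Dpf1* (*Gm44632*) and *Arid1b* (*Gm15599*), and for ratios that use these 5 genes. *Smarca4* and *Smarca2* rose in shRNA RUS, by 0.43 (adjusted p = 2.88e-05) and 0.28 (adjusted p = 0.00149), and had -0.050 and -0.098 in shRNA CON (adjusted p = 0.563 and 0.234), where both turned positive with TPM as deposited (0.10 and 0.054). *Dpf3* was called in neither group, with 0.16 and 0.17, but in both with TPM as deposited, at 0.31 (adjusted p = 0.0418) and 0.48 (adjusted p = 0.00193). With TPM as deposited the shares of called genes that were higher were 71.4% in shRNA CON, against 55.5%, and 76.9% in shRNA RUS, against 57.5%.

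The ratio of 2 subunits within a library, taken from TPM as deposited, is not changed by dividing the library by a factor, though quantile normalization would change it. Ratios were compared by ranges without a test, and how often ratios of other gene pairs do not overlap was not computed. For single genes, shRNA RUS and shRNA CON did not overlap in 32.8% on day 5 and 47% on day 7. *Actl6b* reached 0.1166 to 0.1415 of the *Actl6a* level in shRNA CON on day 5, 0.1416 to 0.189 in shRNA RUS on day 5, 0.253 to 0.297 in shRNA CON on day 7 and 0.424 to 0.592 in shRNA RUS on day 7. The 4 groups stood in this order, with day 5 groups almost touching and the others apart. As a share of the pair, *Actl6b* rose from 11.4% ± 0.814 to 22.1% ± 1.26 in shRNA CON and from 13.9% ± 1.71 to 32.6% ± 3.40 in shRNA RUS. The ratio of *Ss18l1* to *Ss18* was higher in shRNA RUS on both days without overlap, at 0.174 to 0.198 against 0.138 to 0.161 on day 5 and 0.195 to 0.219 against 0.160 to 0.169 on day 7.

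*Smarca2* was above *Smarca4* in every control library, with ratios of 1.09 to 1.18 on day 5 and 1.06 to 1.18 on day 7, and below it in every shRNA RUS library, with 0.789 to 0.997 and 0.751 to 0.908. The log2 ratio was lower in shRNA RUS by 0.35 (SE 0.074) on day 5 and 0.46 (SE 0.069) on day 7. For the BAF45 genes the ratios did not move together. *Dpf3* to *Phf10* was lower in shRNA RUS on both days without overlap (0.0765 to 0.109 against 0.127 to 0.131, and 0.0871 to 0.115 against 0.117 to 0.133), while *Dpf1* to *Phf10* overlapped on both days. *Arid1b* to *Arid1a* was higher in shRNA RUS on day 5, at 0.523 to 0.595 against 0.431 to 0.506, and overlapped on day 7, at 0.514 to 0.550 against 0.520 to 0.541. Without shRNA RUS replicate 4, the day 5 differences in log2 ratio were -0.40 for *Smarca2* to *Smarca4*, 0.23 for *Arid1b* to *Arid1a*, 0.38 for *Actl6b* to *Actl6a*, -0.23 for *Dpf1* to *Phf10*, -0.55 for *Dpf3* to *Phf10* and 0.28 for *Ss18l1* to *Ss18*. *Arid1a* was the more abundant ARID transcript in all 16 libraries.

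**Figure D3:**
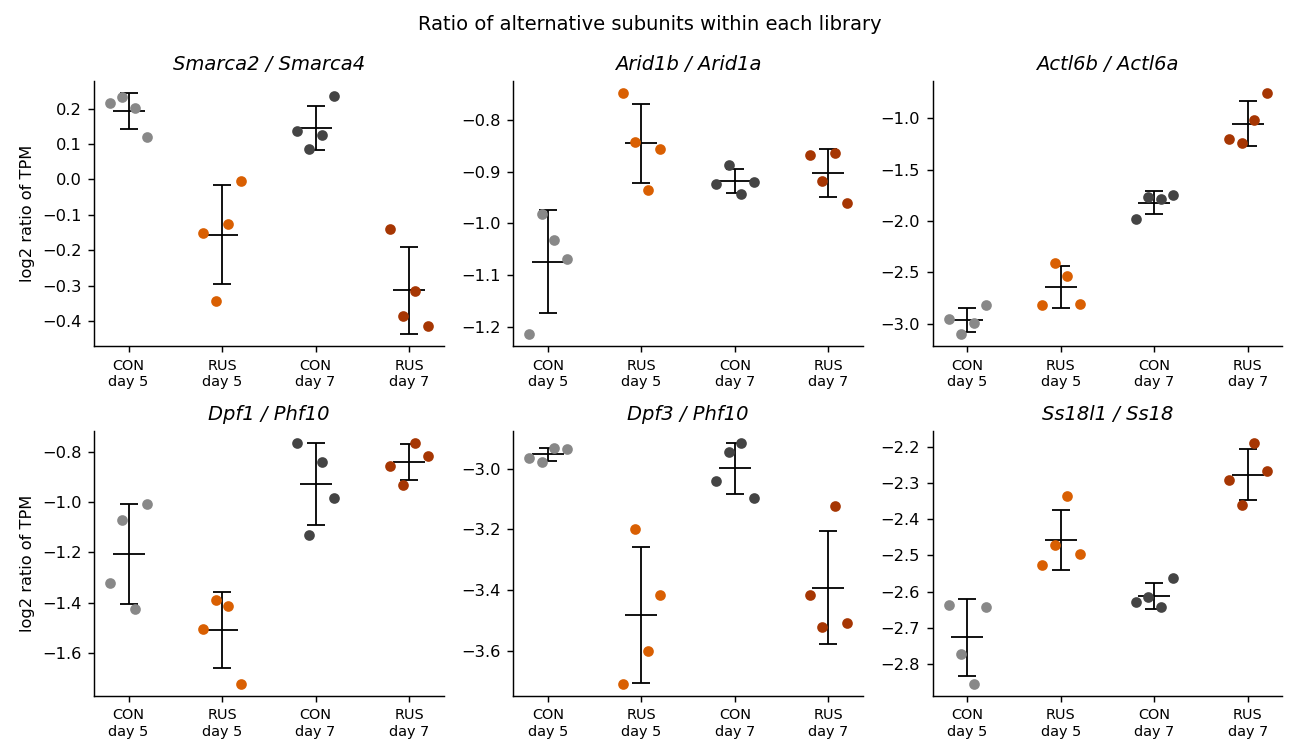
Log2 ratio of the TPM of alternative subunits within each library (points), with group means and SD (n = 4), for the 4 groups. For *Smarca2* / *Smarca4* all control points lie above 0 and all shRNA RUS points below, and for *Actl6b* / *Actl6a* the mean climbs from -2.97 in shRNA CON on day 5 to -1.05 in shRNA RUS on day 7.

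Of the remaining subunits of BAF and its relatives, more were called higher than lower on day 7. Of 21 other subunits, 5 were higher, 4 lower and 12 not called on day 5, with a median log2 fold change of 0.081, and 13 were higher, 1 lower and 7 not called on day 7, with a median of 0.22 where that of all genes was -0.029. Of all genes, 14.8% were called higher and 17.9% lower on day 5, and 23.4% and 25.8% on day 7. When the filter on mean TPM was raised to 1, the shares called in either direction were 46.6% on day 5 and 67% on day 7. *Smarcd1*, which encodes the shared subunit BAF60a, rose on both days, from 29.7 ± 1.60 to 40.2 ± 2.55 TPM after scaling on day 5 (0.44, adjusted p = 0.000897) and from 40.8 ± 2.21 to 65.9 ± 2.33 on day 7 (0.69, adjusted p = 2.80e-06). *Smarcc1* (BAF155), a core scaffold subunit, fell on day 5 (-0.34, adjusted p = 0.00309), and its paralog *Smarcc2* (BAF170) rose on day 7 (0.46, adjusted p = 2.19e-05). *Smarcc2* was also called higher on day 5, at 68.8 ± 3.80 against 61.0 ± 2.85 TPM after scaling, a call that failed in 12 of 18 alternatives. *Bcl7b* was higher on day 5 (0.32, adjusted p = 0.0208), but not without shRNA CON replicate 1 or shRNA RUS replicate 2 or 3 (adjusted p of up to 0.0586), with TPM as deposited (0.16, adjusted p = 0.114) or with 75th percentile scaling (0.24, adjusted p = 0.0506). *Bcl11b* (CTIP2), a zinc finger protein that joins neuronal BAF, had a log2 fold change of -0.40 on day 5 (adjusted p = 0.0403). On day 7 this was 0.32 (adjusted p = 0.0482). These calls failed in 10 of 18 alternatives on day 5 (adjusted p of up to 0.193, with quantile normalization) and in 12 of 18 on day 7 (up to 0.119), and 7 and 6 of these left out 1 library. *Bicra* and *Bicral*, alternative subunits of the noncanonical complex, rose on day 7 (0.54, adjusted p = 0.0096, and 0.50, adjusted p = 0.000514). The 1 subunit lower on day 7 was *Bcl7c* (-0.25), named after its value was seen.

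**Figure D4:**
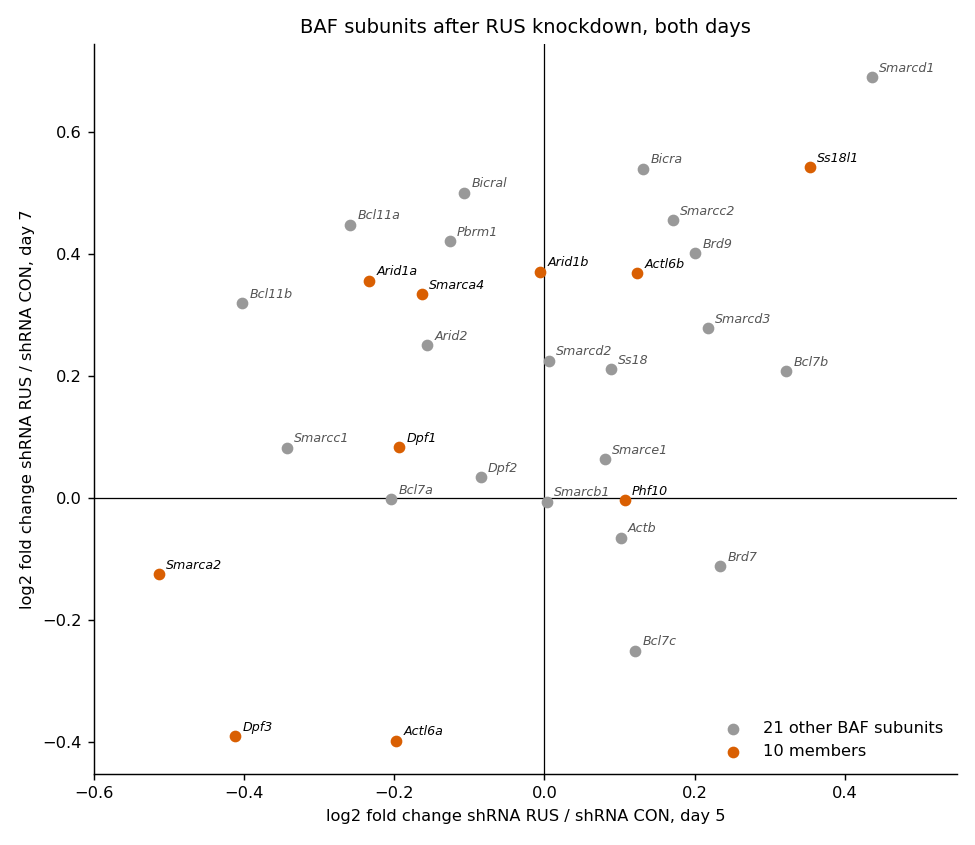
Log2 fold change shRNA RUS against shRNA CON on day 5 (horizontal) and day 7 (vertical) for the 10 members (orange) and 21 other BAF subunits (grey). *Actl6a*, *Dpf3* and *Smarca2* lie below 0 on both days, as does *Bcl7a*, which is near 0 on day 7 at -0.0023, and most points lie above 0 on day 7.

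Other families of remodeler ATPases were counted in the same way. Of 16 genes outside BAF, 0 were higher and 6 lower on day 5, and 8 were higher and 4 lower on day 7, to be read against the same shares of all genes. The 4 lower on day 7 are near the share of all genes. The largest differences on day 5 were those of *Hells*, which encodes a helicase linked to DNA methylation and cell division (-1.47, adjusted p = 0.000143), *Chd3* (-0.70, adjusted p = 0.000433), *Smarcad1* (-0.61, adjusted p = 0.0012) and *Smarca5*, the ISWI ATPase SNF2H (-0.47, adjusted p = 0.00718). On day 7 *Hells* (-1.07, adjusted p = 2.47e-05) and *Smarcad1* (-0.54, adjusted p = 3.19e-05) were again lower, and *Chd4* (0.55, adjusted p = 2.92e-05) and *Chd5* (0.51, adjusted p = 0.00048), ATPases of the NuRD complex, were higher.

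Transcripts that bear on the microRNA control of *Actl6a* were measured as host genes, which are not the mature microRNAs. *Mir9-3hg*, the host of *Mir9-3*, was lower in shRNA RUS on both days, at 41.0 ± 1.55 in shRNA RUS against 59.9 ± 0.607 TPM after scaling in shRNA CON on day 5 (log2 fold change -0.55, adjusted p = 5.65e-05) and 48.3 ± 3.48 against 67.7 ± 3.57 on day 7 (-0.49, adjusted p = 0.000109). *Mir124a-1hg* stood at 7.47 ± 0.693 in shRNA RUS against 9.16 ± 1.63 in shRNA CON on day 5 (-0.28, adjusted p = 0.118), which was called lower with TPM as deposited (-0.44) and with 75th percentile scaling (adjusted p = 0.0433), and was higher on day 7, at 25.5 ± 2.51 against 18.5 ± 1.101 (0.46, adjusted p = 0.000681). *Mir124-2hg* was called on neither day (0.29, adjusted p = 0.135, and 0.11, adjusted p = 0.377). *Rest*, which encodes the repressor REST, was higher on day 5 (6.73 ± 0.959 against 5.34 ± 0.220 TPM after scaling, 0.32, adjusted p = 0.0393), which failed in 11 of 18 alternatives, 6 of them with 1 library left out (adjusted p of up to 0.0917) and with the lowest value, 0.16, for TPM as deposited (adjusted p = 0.369), and on day 7 (14.3 ± 0.456 against 8.50 ± 0.367, 0.75, adjusted p = 3.66e-06). *Ptbp1*, a splicing repressor that is itself repressed by miR-124, was lower on both days (-0.31, adjusted p = 0.00192, and -0.55, adjusted p = 1.75e-05). *Mir9-1* was listed at 0 in most libraries, and a host of *Mir9-2* was not examined.

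Genes whose pattern over the 16 libraries was most like that of 3 members were found among 15898 genes, by the root mean square difference of log2 levels after each gene was centred on its mean. For *Arid1b* these were *Brd1* (0.051), *Pacs2* (0.0607) and *Akap8* (0.0629), where the median over all genes was 0.503 and the SD of *Arid1b* itself was 0.406. For *Actl6a* they were *Rbmxl1* (0.0489), *Nup88* (0.0553) and *Tcp1* (0.0569), with a median of 0.388 over all genes. For *Actl6b* they were *C130013H08Rik* (0.119), *Hcn4* (0.122) and *Ina* (0.122), with a median of 0.691. These are descriptions of libraries that share their scaling, and carry no test.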

How the data were processed

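RNA-seq was analysed from 16 NSC libraries, grouped by shRNA and day from the labels. The authors selected polyA RNA, aligned reads with STAR to mm10 with the GRCm38.99 transcripts, quantified them with RSEM and deposited TPM per library for each day. The tables also hold the authors' own comparison (base mean signal, log2 fold change with its error, a score statistic, p-value and adjusted p-value), which was not used. Labels and methods differ in FGF2 and GlutaMax amounts. No counts were used, so depth is unknown and no counting interval is given.

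TPM were divided by median-ratio factors (genes with at least 1 TPM in all libraries of a fit), 0.1 was added before log2, and genes whose mean TPM reached 0.1 were tested with limma 3.58.1 in R 4.3.3 (lmFit, eBayes with trend, Benjamini-Hochberg, 0.05), after the script was tested on simulated data. A knockdown comparison used the 8 libraries of its day, and day comparisons and the difference of effects a single fit of all 16. P-values measure the spread between these libraries. Lines without a gene (3, with 0.134 to 0.386% of TPM, on day 5) and 106 lines that differ between the tables were left out. Positions and 3′ UTRs came from GENCODE vM21 (GRCm38), and microRNAs from RefSeq. Python 3.11.15, numpy 2.4.6, pandas 2.3.3 and matplotlib 3.10.9 were used.

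Members and lists were chosen with earlier results of these data known. Named were all members, *Gm20754*, *Ss18*, up to 4 called genes with the largest change per list and knockdown comparison, and 3 genes most like *Arid1b*, *Actl6a* and *Actl6b*. The regulator list (*Rest*, *Ptbp1* and microRNA hosts) was added later. Alternatives were other pseudocounts, filters and scalings, no trend, a replicate block, 1 fit of all libraries and leaving out each library; leave-outs of the ratios were added after seeing the data. Marker lists were as follows: NSC, proliferation, neuron, astrocyte, oligodendrocyte lineage, microglia, and fibroblast and vascular.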

Additional observations from a re-analysis of the deposited data

Results flagged for a closer look

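The effect of the knockdown differed between day 5 and day 7 for 4 members, by a test of the difference itself, where 29.8% of all genes were called. The called share was 43.6% when the filter on mean TPM was raised to 1. The log2 difference from limma was 0.58 for *Arid1a* (adjusted p = 0.000916), 0.49 for *Smarca4* (adjusted p = 0.00122), 0.38 for *Smarca2* (adjusted p = 0.00601) and 0.36 for *Arid1b* (adjusted p = 0.00219). *Smarca2* was lower on both days and less so on day 7, when it was not called in the fit of all 16 libraries (adjusted p = 0.0905). *Arid1a* and *Smarca4* were higher on day 7, with point values below 0 on day 5. On that day *Arid1a* was called lower in the fit of all 16 libraries (adjusted p = 0.0214), with TPM as deposited and with 75th percentile scaling, and *Smarca4* with all 3 other scalings (adjusted p of 0.0149 to 0.0282). *Arid1b* was near 0 on day 5.

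In 1 of 40 groups of 4 libraries, a library stood far from the others. *Ss18l1* was at 11.5 TPM after scaling in shRNA CON replicate 4 on day 7, where the other 3 were at 10.9. Chance alone flags about 1 in 20 such groups, and the library was still below all shRNA RUS libraries.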

How the results depend on the processing

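Depth is unknown. On day 5 the call count of 4 members became 7 with 75th percentile scaling (32.2% of all genes called, against 32.7%), 2 with the replicate block (22%) and 2 to 4 when 1 library was left out (25.5 to 37.7%), with 2 without shRNA CON replicate 1 or 3 or shRNA RUS replicate 3. The difference between the days went from 4 members to 7 with TPM as deposited (32.6% of all genes, against 29.8%). Without 1 library the other counts were 7 to 8 (day 7 knockdown), 6 (time in shRNA CON), 8 to 9 (time in shRNA RUS) and 4 to 5 (difference), and *Gm20754* was at 32.9 to 94.7% of control on day 5 and 25.2 to 57.7% on day 7. Correlations of same-numbered libraries did not show a pairing, but with 4 libraries per group they cannot exclude it. They ran from -0.25 to -0.0155 on day 5 and from 0.0159 to 0.10 on day 7, above 0.1 in 1 of 8 pairs. By their own number, 2 libraries matched best. The block left 2 members on day 5, *Smarca2* and *Ss18l1*, and took the call from *Actl6a* (adjusted p = 0.118) and *Dpf3* (0.072). Signs changed only for values that were not called, except *Actl6a* over time in shRNA RUS. With TPM as deposited, day 5 values became -0.032 (*Actl6b*), -0.051 (*Phf10*), -0.025 (*Bicra*), -0.093 (*Chd4*) and -0.069 (*Ss18*), time in shRNA CON 0.10 (*Smarca4*), 0.054 (*Smarca2*) and 0.11 (*Actl6a*), time in shRNA RUS 0.072 (*Actl6a*), and the difference 0.050 (*Phf10*). With quantile normalization, day 5 became 0.090 (*Arid1b*), 0.036 (*Bicral*) and -0.064 (*Chd4*), time in shRNA CON 0.029 (*Smarca4*) and 0.028 (*Actl6a*), time in shRNA RUS -0.024 (*Dpf3*), and the difference -0.050 (*Dpf3*). With 75th percentile scaling, day 5 became -0.013 (*Chd4*), day 7 -0.015 (*Chd3*), and time in shRNA CON 0.024 (*Smarca4*) and 0.034 (*Actl6a*). Leaving out 1 library gave -0.044 to 0.028 for *Arid1b* and -0.0096 to 0.13 for *Chd4* on day 5, -0.021 to 0.027 for *Phf10* on day 7, and -0.068 to 0.094 for the *Dpf3* difference. Over all genes, TPM as deposited changed higher calls on day 5 from 3349 to 1768, the difference from 3626 higher and 3464 lower to 5700 and 2053, and lower calls over time in shRNA RUS from 6135 to 3545. Causes were not tested.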

Other observations

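Marker lists of other cell types also moved. Of 5 oligodendrocyte lineage markers, 3 were lower in shRNA RUS on day 5 and 4 on day 7, with summed levels of 89.9 to 112 TPM against 53.6 to 61.1 and of 188 to 218 against 99.7 to 150. Of 6 astrocyte markers, 1 was higher and 1 lower on day 5, and 2 were higher and 2 lower on day 7. Their sums were 3160 to 3442 TPM in shRNA CON and 3633 to 3918 in shRNA RUS on day 5, and 1833 to 1875 against 1887 to 2140 on day 7. On day 5 *Gfap* was at 2434 ± 71.3 TPM in shRNA RUS against 1797 ± 78.8. Every other astrocyte marker then had a lower mean TPM as deposited in shRNA RUS. Of 6 fibroblast and vascular markers 5 were tested, 1 was higher on day 5 and 2 on day 7, when the sum was 15.1 to 17.0 TPM in shRNA CON and 32.1 to 37.0 in shRNA RUS. Most of that sum was *Pdgfrb*, at 28.7 ± 1.498 TPM in shRNA RUS against 11.45 ± 0.681, while *Dcn* had a lower mean, at 0.2725 against 0.42. Of 8 neuron markers, 3 were higher and 2 lower on day 5, and 4 were higher and 2 lower on day 7. Among 6 NSC markers, 3 were higher and 2 lower on day 5, and 2 were higher and 2 lower on day 7.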
